A study of Mus musculus with 6 samples.

Results

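The genes examined are those of the mitochondrial respiratory chain and ATP synthase, taken from liver RNA sequencing of mice on 2 diets. They were found by symbol (mt-Nd, mt-Co, mt-Atp, mt-Cytb, Nduf, Sdh, Uqc, Cox4 to Cox8 and Atp5 names), which gave 113 of the 21899 rows in the gene tables. Of these rows 13 are encoded by mitochondrial DNA and 100 by the nucleus. The nuclear rows comprise 85 of subunits, 12 of assembly factors and 3 of paralogues or a pseudogene. The symbol Atp5o stands for 2 rows. The mice were C57BL/6, an inbred strain, 6 weeks old at the start, and had 1 week to acclimatise. The control group of 3 mice received CSAA, a choline-supplemented amino acid-defined feed. The other 3 received CDAA, its choline-deficient counterpart, after passing through mixtures of both feeds over 1 week, and liver was taken at week 6 after that. No transgene or further agent is named for either group.

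The respiratory chain passes electrons from NADH and succinate to oxygen and pumps protons across the inner mitochondrial membrane, and ATP synthase uses the return of those protons to make ATP. Complex I oxidises NADH, complex II oxidises succinate, complex III passes electrons from ubiquinone to cytochrome c, complex IV reduces oxygen and complex V is ATP synthase. Mitochondrial DNA encodes core subunits of complexes I, III, IV and V, while complex II and all other subunits come from nuclear genes. In hepatocytes the chain takes up the electrons released by fatty acid oxidation.

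Libraries held between 14580676 and 17367173 reads over genes. Levels below are CPM, a gene's reads relative to library size, scaled by TMM, unless FPKM (also divided by gene length, on unscaled totals) is named. TMM is a single factor per library that takes most genes as unchanged, and it does not remove differences in cell makeup. A gene passed at an edgeR quasi-likelihood adjusted p under 0.05 over the 12845 genes tested. Of these 14.8% passed, 4.25% as higher in CDAA and 10.5% as lower, while 15.6% had all CDAA libraries above all CSAA libraries and 20.4% the reverse. Markers of hepatocytes, 20 genes, summed to 94708 to 121168 CPM in CSAA and 134751 to 147991 CPM in CDAA. They had a median log2 fold change of 0.45, with 19 of 20 values above 0, and 2 of 20 passed as higher. At an unadjusted edgeR p under 0.05, and also by DESeq2, 11 of 20 were higher and 0 lower. The share of all genes at that unadjusted threshold was not computed, and that by DESeq2 is given in the last section. Of 18 monocyte and macrophage genes 14 passed as lower and 0 as higher (edgeR, 0 higher also at an unadjusted p under 0.05 and by DESeq2), and their sum was 1274 to 2023 CPM in CSAA and 493.7 to 684.2 CPM in CDAA. These are changes in marker transcripts, and the part of cell makeup in the results below was not tested. In whole liver, fewer cells of a type and less RNA per cell cannot be told apart. CDAA replicate 1 held transcripts of other tissues, with 296.6 CPM over 12 striated muscle genes where no other library exceeded 1.38 CPM, and 2346 CPM over 17 pancreatic acinar genes where none exceeded 15.2 CPM. Muscle genes at 0 in all 6 libraries numbered 1.

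The mitochondrially encoded genes fell into 2 ranges of level, and 5 of the 6 genes in the low range have an almost identical annotated copy in the nuclear genome, the exception being mt-Atp8. Levels per length in CSAA (mean FPKM, n = 3) were between 698.6 and 13937 for mt-Nd1, mt-Nd2, mt-Co1, mt-Nd4, mt-Nd5, mt-Nd6 and mt-Cytb. They were between 2.91 and 138.9 for mt-Co2, mt-Atp6, mt-Co3, mt-Nd3 and mt-Nd4l, and 0.634 for mt-Atp8. These 6 genes are neighbours, from position 7013 to 10173 of the mitochondrial chromosome in the files, and together held between 0.329 and 0.487% of all mitochondrially encoded reads in a library. Of the 100-base windows of the mt-Co2, mt-Atp6, mt-Co3, mt-Nd3 and mt-Nd4l transcripts in GENCODE M21, at least 97.6% also occurred in a transcript of another gene, against at most 60.8% (mt-Nd4) for the other mitochondrially encoded genes. The copies are unprocessed pseudogenes lying side by side on chromosome 1, from Gm28439 (starting at 24611535) to Gm29216 (ending at 24616197, GRCm38, minus strand). The copies of mt-Co2, mt-Atp6 and mt-Co3 (Gm28661, Gm10925 and Gm28437) differed from the mitochondrial genes at 0 of 681, 0 of 678 and 0 of 783 aligned bases. For mt-Atp8 no window was found in another annotated transcript, and the genome itself was not searched. On mitochondrial DNA mt-Atp8 starts between mt-Co2 and mt-Atp6. The copies of these neighbours leave a gap on chromosome 1, from Gm10925 (ending at 24614651) to Gm28661 (starting at 24614885). Whether that gap holds a copy of mt-Atp8 without its own annotation was not tested. The first 120 bases of mt-Nd3, a membrane subunit of complex I, and of its copy are shown to let the likeness be seen. They hold the 1 mismatch in the 345 aligned bases, marked by the capital letter in each. The former are chrM:9459-9578 (plus strand) and the latter chr1:24613000-24613119 (minus strand), both GRCm38 as annotated by GENCODE.
mt-Nd3: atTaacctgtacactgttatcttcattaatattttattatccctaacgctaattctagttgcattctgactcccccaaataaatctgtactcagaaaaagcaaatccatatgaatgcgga
Gm28438: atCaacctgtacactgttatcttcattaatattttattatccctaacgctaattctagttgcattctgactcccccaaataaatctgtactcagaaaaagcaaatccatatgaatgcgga

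How reads with several matches were treated is not given in the sources used here, so levels of these 6 genes, of mt-Nd4 and of part of mt-Co1 (30.8% of windows shared) are uncertain, and so is any sum over mitochondrially encoded genes. The part of the copies in the low levels was not tested.

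**Figure D1:**
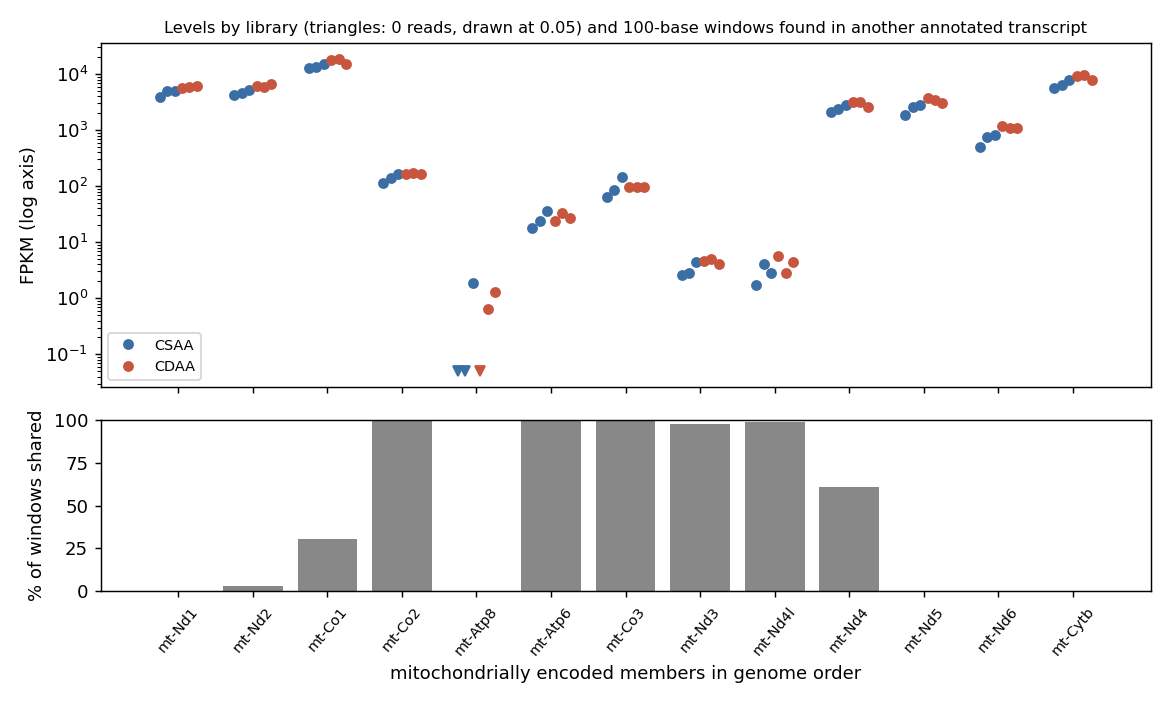
Upper panel, FPKM of each mitochondrially encoded gene in each library on a log axis, in genome order, with CSAA in blue and CDAA in red and replicates 1 to 3 from left to right; triangles are libraries with 0 reads. Lower panel, percent of the 100-base windows of each transcript that occur in a transcript of another gene: mt-Co2, mt-Atp6, mt-Co3, mt-Nd3 and mt-Nd4l are at 97.6% or more and have low FPKM in all 6 libraries.

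Of 12 tested mitochondrially encoded genes 2 rose in CDAA, 0 fell and 10 did not pass, beside 4.25% of all genes tested passing as higher and 10.5% as lower. Their median log2 fold change was 0.65 beside 0.00 for all genes tested and 0.45 for the hepatocyte markers. On library size alone these medians were 0.38, -0.28 and 0.17. The groups did not overlap for 9 of 12, with CDAA higher, and overlapped for mt-Co3, mt-Atp6 and mt-Nd4l. Of all genes tested 15.6% had all CDAA libraries above all CSAA libraries and 20.4% the reverse. Log2 fold changes were above 0 for 12 of 12, from 0.22 (mt-Co3) to 0.96 (mt-Nd6). The gene not tested, mt-Atp8, had 0, 0 and 6 reads in CSAA and 0, 2 and 4 in CDAA.

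The light strand of mitochondrial DNA carries a single protein gene, mt-Nd6, which encodes a complex I membrane subunit. In CSAA replicates 1 to 3 mt-Nd6 was at 223.8, 358.4 and 414.4 CPM, and in CDAA replicates 1 to 3 at 695.8, 646.6 and 600.8 CPM. All CDAA libraries lay above all CSAA libraries. The gene rose by 0.96 ± 0.22 on the log2 scale (SE, edgeR adjusted p = 0.0241). It overlaps the opposite-strand gene mt-Nd5 by 14 bases, and without a stated strand setting reads of the strands cannot be told apart. Reads of mt-Nd6 per 100 reads of mt-Nd5 were 7.66, 8.51 and 8.25 in CSAA and 9.14, 9.12 and 9.94 in CDAA.

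Also in complex I, mt-Nd2 was at 3772, 4318 and 5120 CPM in the CSAA mice and 6966, 7033 and 7272 CPM in the CDAA mice, with no overlap. It rose by 0.69 ± 0.18 on the log2 scale (edgeR adjusted p = 0.0375). The catalytic subunit of complex IV, mt-Co1, was the most abundant member by CPM. It was at 16816, 19207 and 22831 CPM in CSAA and at 31111, 32644 and 24786 CPM in CDAA. The groups did not overlap, but CSAA replicate 3 and CDAA replicate 3 stood close, and the gene did not pass (log2 0.59 ± 0.23, edgeR adjusted p = 0.129). The complex III subunit mt-Cytb was at 5617, 6762 and 8458 CPM in the CSAA mice and 11530, 12301 and 9620 CPM in the CDAA mice (log2 0.68 ± 0.22, edgeR adjusted p = 0.0704). The log2 fold changes of mt-Nd5, mt-Nd1, mt-Nd4 and mt-Co2 were 0.77, 0.62, 0.59 and 0.53, with edgeR adjusted p between 0.0587 and 0.0866. Those of mt-Nd3, mt-Nd4l and mt-Atp6 were 0.73, 0.85 and 0.34, on at most 27 reads per library for the former 2. In CSAA replicates 1 to 3 mt-Co3 was at 43.2, 61.8 and 110.8 CPM, and CSAA replicate 3 lay above all CDAA libraries (81.4 to 86.4 CPM). It did not pass (log2 0.22 ± 0.29, edgeR adjusted p = 0.668), but passed without CSAA replicate 3 (log2 0.69) and was at -0.03 without CSAA replicate 1. The call of mt-Nd6 was lost without CSAA replicate 2, CDAA replicate 1 or CDAA replicate 2 (highest edgeR adjusted p = 0.069), and mt-Nd2 kept its call in 1 of the 6 fits that leave out a library, that without CSAA replicate 3 (highest edgeR adjusted p = 0.127).

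Summed over the 13 genes, mitochondrially encoded transcripts were at 35163, 42397 and 50390.3 CPM in CSAA and 69190.3, 71417 and 58664 CPM in CDAA. The sum over nuclear subunits was 6761, 7196 and 7983 CPM in CSAA and 9584, 9494 and 9038 CPM in CDAA. Both sums separated the groups, and both were lowest in CSAA replicate 1. The ratio of group means, CDAA over CSAA, was 1.56 for the mitochondrially encoded and 1.28 for the nuclear sum. Of all respiratory chain reads the mitochondrially encoded genes took 83.5, 85.1 and 86.0% in CSAA and 87.5, 87.9 and 86.3% in CDAA, so that CSAA replicate 3 and CDAA replicate 3 differed by less than the spread within either group. Of all reads in a library they took 4.68 ± 0.565% (CSAA) and 6.01 ± 0.456% (CDAA) as mean ± SD of 3 libraries each. No test was made of these sums, since the members were chosen with earlier results known.

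**Figure D2:**
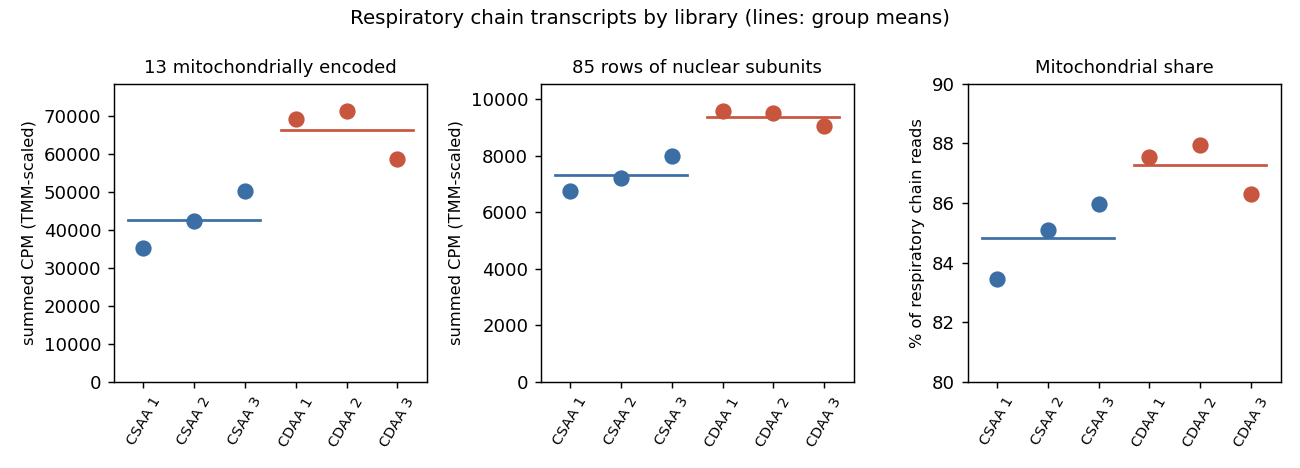
Summed CPM of the 13 mitochondrially encoded genes, summed CPM of the 85 nuclear subunit rows, and the mitochondrial percent of respiratory chain reads (axis from 80 to 90), 1 point per library with lines at group means. The CDAA libraries lie above the CSAA libraries in each panel, with CDAA replicate 3 (58664 CPM and 86.3%) the lowest of its group.

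Of 85 rows of nuclear subunits 77 were tested, of which 22 rose in CDAA, 0 fell and 55 did not pass. Of all genes tested 4.25% passed as higher and 10.5% as lower. These shares stand beside this count and beside those by complex, by module and of the assembly factors below. Medians by complex ran from 0.32 to 0.38 on the log2 scale, and differences between complexes were not tested. The median log2 fold change was 0.35, beside 0.00 for all genes tested and 0.45 for the hepatocyte markers, and 75 of 77 values were above 0. The values ran from -0.46 (Ndufb2) to 0.82 (Ndufb1). All libraries of CDAA lay above all of CSAA for 58 of 77 rows and the reverse for 0, beside 15.6% and 20.4% of all genes tested. Counting all 113 rows, 103 were tested and 26 passed as higher. At an unadjusted edgeR p under 0.05 there were 73, for which no share of all genes was computed. Members lower by edgeR at either threshold or by DESeq2 numbered 0. The size depended on the scaling: on library size alone all genes had a median of -0.28, the nuclear subunits had one of 0.07 and 58 of 77 values were above 0, so changes are given relative to the TMM scale.

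The count also rested on single libraries. Without CSAA replicate 1, CSAA replicate 2, CDAA replicate 1 or CDAA replicate 2, in that order, 3, 5, 5 and 4 members passed as higher, while the share of all genes passing as higher was then 0.588, 1.25, 1.71 and 1.20%. Without CSAA replicate 3 or CDAA replicate 3, 31 and 26 members passed, beside 3.04 and 5.25% of all genes, and 18 and 19 of the original 26 were among them. The median of the nuclear subunits stayed between 0.33 and 0.45 in these 6 fits. Uqcr11 and Ndufb8 passed in all 6.

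**Figure D3:**
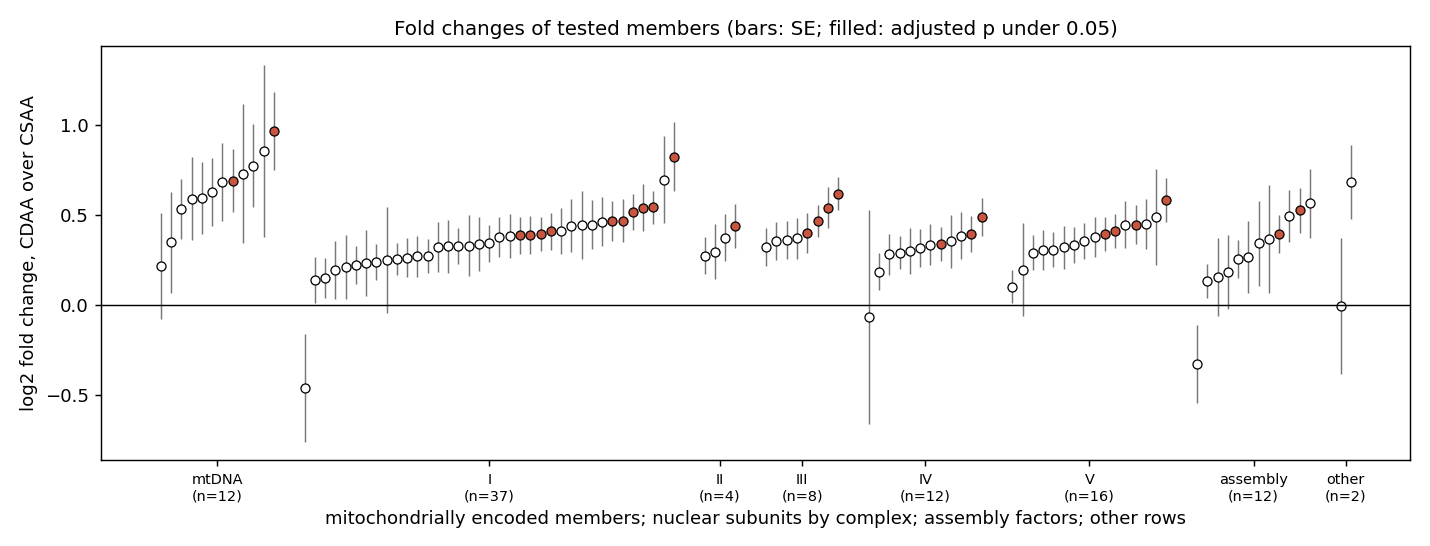
Log2 fold change (CDAA over CSAA) of each tested member with its SE, grouped as mitochondrially encoded (mtDNA), nuclear subunits of complexes I to V, assembly factors and other rows; filled points passed at an edgeR adjusted p under 0.05. Nearly all points lie above 0, with Ndufb2 (-0.46) and the assembly factor Uqcc2 (-0.33) the lowest.

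Complex I, the NADH dehydrogenase, had 37 nuclear rows, of which 10 rose, 0 fell and 27 did not pass (median log2 0.34). Ndufb8, in the distal membrane arm, was at 26.1, 24.6 and 25.4 CPM in the CSAA mice and 38.1, 37.2 and 35.4 CPM in the CDAA mice. The groups were far apart relative to their spread (log2 0.54 ± 0.09, edgeR adjusted p = 0.00911). Of the span of Ndufb8, 62.0% lies under the same-strand gene Gm20538, so its reads could be split. Ndufb6, of the same arm, was at 18.0, 17.5 and 18.4 CPM in the CSAA mice and 26.1, 24.8 and 26.1 CPM in the CDAA mice (log2 0.51 ± 0.10, edgeR adjusted p = 0.015). It did not pass without CSAA replicate 1 (edgeR adjusted p = 0.059).

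The row named Ndufb1 was at 4.81, 4.96 and 4.41 CPM in the CSAA mice and 9.43, 8.59 and 7.10 CPM in the CDAA mice (log2 0.82 ± 0.19, edgeR adjusted p = 0.0272). GENCODE M21 lists its identifier as Ndufb1-ps, of a non-coding type, so these reads need not come from the subunit gene. Ndufa6, of the matrix arm, rose by 0.46 ± 0.11, Ndufv3, next to the NADH-binding site, by 0.54 ± 0.13 and Ndufs5, of the proximal membrane arm, by 0.39 ± 0.10 on the log2 scale (edgeR adjusted p = 0.031, 0.0313 and 0.0327). The other 4 that rose were the flavoprotein subunits Ndufv1 and Ndufv2 and the matrix arm subunits Ndufs3 and Ndufs8, with edgeR adjusted p from 0.0356 to 0.049. These 8 did not pass without CSAA replicate 1, CSAA replicate 2, CDAA replicate 1 or CDAA replicate 2, nor, for some, without others (highest edgeR adjusted p = 0.159, for Ndufs8).

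By part of complex I, 3 of 8 genes of the NADH-binding module rose, 3 of 8 of the ubiquinone-binding module, 1 of 9 of the proximal and 3 of 12 of the distal membrane arm. Medians of log2 fold changes were 0.38, 0.36, 0.27 and 0.44 in that order. Differences between modules were not tested. Per length Ndufa8, an accessory subunit of the proximal arm, was the most abundant nuclear complex I gene, at 100.7 FPKM in CSAA and 99.7 FPKM in CDAA, and it did not pass (log2 0.27 ± 0.09 on the TMM scale, edgeR adjusted p = 0.0891). Ndufb2 was at 3.64, 3.20 and 4.97 CPM in the CSAA mice and 3.19, 2.07 and 3.27 CPM in the CDAA mice, so the groups overlapped (log2 -0.46 ± 0.30, edgeR adjusted p = 0.338).

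Complex II, succinate dehydrogenase, which also belongs to the citric acid cycle, had 1 of 4 genes passing. Sdha, the flavoprotein that oxidises succinate, was at 479.0, 541.9 and 567.4 CPM in the CSAA mice and 741.2, 743.2 and 666.0 CPM in the CDAA mice. It stood at the edge of the threshold (log2 0.44 ± 0.12, edgeR adjusted p = 0.0499), and 4 of the 13 alternative fits called it. Of the single-library fits, that without CDAA replicate 3 called it and the other 5 did not (highest edgeR adjusted p = 0.163). The iron-sulfur subunit gene Sdhb had a log2 value of 0.29 ± 0.15, and the membrane anchor genes Sdhc and Sdhd had 0.27 ± 0.10 and 0.37 ± 0.13 (edgeR adjusted p = 0.239, 0.12 and 0.0952).

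Complex III had 8 nuclear rows, and the libraries of CDAA lay above those of CSAA for 8 of 8, beside 15.6% of all genes tested. Of the 8 rows 4 rose, 0 fell and 4 did not pass (median log2 0.38). Uqcr11, the smallest accessory subunit, was at 25.9, 26.8 and 28.4 CPM in the CSAA mice and 42.7, 40.9 and 40.8 CPM in the CDAA mice. It had the smallest adjusted p among the 103 members tested (log2 0.62 ± 0.09, edgeR adjusted p = 0.0055) and was the only one called in all 13 alternative fits. Its row (ENSMUSG00000020163) lies on chromosome 10 from 80238831 to 80242664, minus strand, in the files, whose build is not named.

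Uqcr10, which sits beside cytochrome c1, was at 45.8, 47.4 and 49.4 CPM in the CSAA mice and 68.5, 66.3 and 61.9 CPM in the CDAA mice (log2 0.46 ± 0.09, edgeR adjusted p = 0.0152). Uqcrb, which helps form the ubiquinone site, rose by 0.54 ± 0.11, and Uqcrq, another small subunit, by 0.40 ± 0.11 (edgeR adjusted p = 0.018 and 0.0468). Uqcrfs1, the Rieske iron-sulfur protein and the most abundant nuclear complex III gene per length (122.7 FPKM in CSAA), did not pass (log2 0.37 ± 0.11, edgeR adjusted p = 0.065). Uqcr10 and Uqcrb lost their calls when CSAA replicate 1, CSAA replicate 2 or CDAA replicate 2 was left out (highest edgeR adjusted p = 0.0767), and Uqcrq when any of these or CDAA replicate 1 was (highest 0.15).

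Complex IV, cytochrome c oxidase, had 18 nuclear rows, of which 11 are the general or liver forms and 7 are forms known from muscle, lung, testis or other tissues. Of the general forms 3 rose, 0 fell and 8 did not pass. Cox7c was at 73.1, 86.2 and 85.4 CPM in the CSAA mice and 117.5, 106.1 and 118.6 CPM in the CDAA mice, with no overlap (log2 0.48 ± 0.10, edgeR adjusted p = 0.0211). Cox5a, on the matrix side, rose by 0.39 ± 0.10 and Cox6c, a membrane subunit, by 0.34 ± 0.09 (edgeR adjusted p = 0.0368 and 0.0497). Cox5a and Cox6c passed in 0 of the 6 fits that leave out a library, and Cox7c did not pass without CSAA replicate 1 or CDAA replicate 1 (highest edgeR adjusted p = 0.07).

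Cox6a1 was the most abundant nuclear member per length in CSAA (309.1 FPKM, and 288.9 FPKM in CDAA) and did not pass (log2 0.18 ± 0.10 on the TMM scale, edgeR adjusted p = 0.273). Cox4i1, Cox5b, Cox6b1, Cox7a2, Cox7b, Cox8a and Ndufa4 had log2 fold changes from 0.28 to 0.38 and did not pass (edgeR adjusted p from 0.0726 to 0.161). Cox6a1 and Cox8a had values under 0 on library size alone.

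The tissue-restricted forms of complex IV were close to the floor, with 1 of 7 rows tested. The heart and muscle form Cox6a2 had 4, 9 and 4 reads in CSAA and 43, 2 and 1 in CDAA. The muscle form Cox8b had 13 reads in CDAA replicate 1 and 0 in the other 5 libraries. Both were thus high in the library with 296.6 CPM of muscle transcripts, and without that library Cox6a2 had at most 0.48 CPM and Cox8b 0 reads. Whole Cox6a2 lies under the opposite-strand gene Itgad. In CDAA replicate 1 the pairs with the general form gave 1.52% for Cox6a2 and 1.24% for Cox8b by FPKM, against at most 0.262 and 0% elsewhere.

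Cox7a1, the muscle form of Cox7a2, showed no such rise in that library, at 0.76 CPM against 0.222 to 0.931 CPM in the others (log2 -0.07 ± 0.59, edgeR adjusted p = 0.955). Its sign turned without CSAA replicate 3 (log2 0.28) or CDAA replicate 2 (log2 0.33). Cox4i2, an oxygen-responsive form of lung, had 5, 5 and 3 reads in CSAA and 2, 0 and 0 in CDAA. Cox6b2 had between 1 and 17 reads, and Cox7b2 and Cox8c had 0 in all libraries. A count of 0 allows up to 0.147 to 0.228 CPM at these depths, for counting error only. Ndufa4l2, the hypoxia-linked paralogue of Ndufa4, averaged 1.66 ± 0.496 CPM in CSAA mice and 1.65 ± 0.433 CPM in CDAA (n = 3 each, edgeR adjusted p = 0.993).

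**Figure D4:**
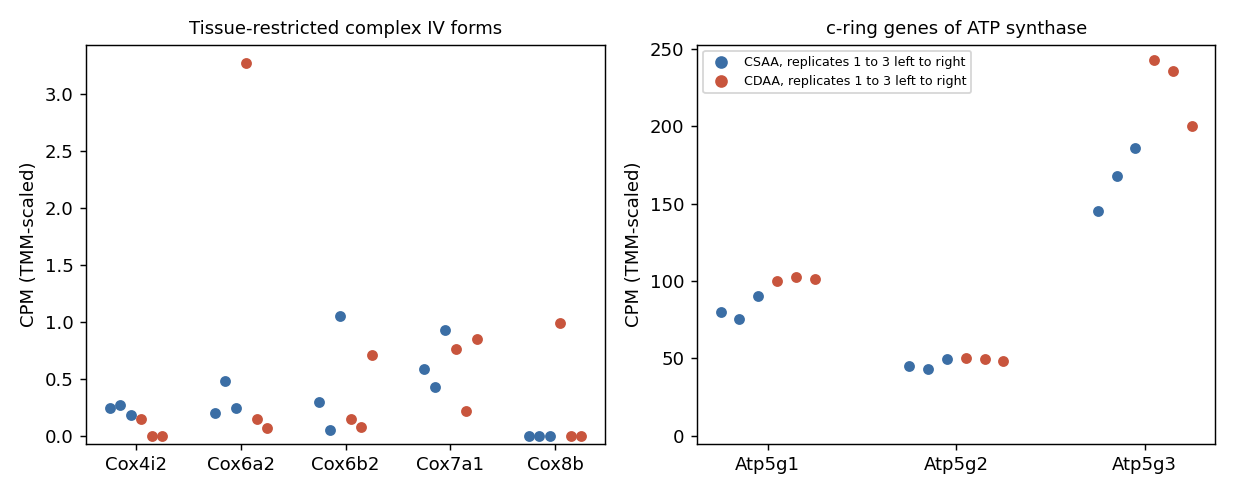
Left, CPM of 5 tissue-restricted complex IV genes in each library; right, CPM of the 3 genes for the c subunit of ATP synthase (CSAA blue, CDAA red, replicates 1 to 3 from left to right). Cox6a2 (3.27 CPM) and Cox8b (0.988 CPM) stand out in CDAA replicate 1, and Atp5g3 separates the groups while Atp5g2 does not.

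Complex V, ATP synthase, had 18 nuclear rows, of which 16 were tested, 4 rose, 0 fell and 12 did not pass (median log2 0.36). Atp5md, a small membrane subunit that links enzyme dimers, was at 16.9, 20.6 and 20.5 CPM in the CSAA mice and 28.5, 31.0 and 27.2 CPM in the CDAA mice (log2 0.58 ± 0.12, edgeR adjusted p = 0.0191). Atp5j, coupling factor 6 of the stalk, rose by 0.41 ± 0.09, Atp5e, the epsilon subunit of the F1 head, by 0.39 ± 0.09 and Atp5mpl, another small membrane subunit, by 0.44 ± 0.11 (edgeR adjusted p = 0.0263, 0.0314 and 0.0337). None of these 4 passed without CSAA replicate 1, CDAA replicate 1 or CDAA replicate 2 (highest edgeR adjusted p = 0.118), and Atp5j, Atp5e and Atp5mpl did not without CSAA replicate 2 either.

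The alpha and beta subunits of the F1 head were the most abundant nuclear members by CPM. Atp5a1 was at 759.5, 842.4 and 973.5 CPM in the CSAA mice and 1224, 1183 and 1105 CPM in the CDAA mice (log2 0.45 ± 0.14, edgeR adjusted p = 0.0662). Atp5b was at 913.6, 948.4 and 1017 CPM in the CSAA mice and 1199, 1184 and 1207 CPM in the CDAA mice (log2 0.32 ± 0.12, edgeR adjusted p = 0.113). Neither overlapped between groups and neither passed.

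The genes Atp5g1, Atp5g2 and Atp5g3 encode the same mature c subunit of the rotating ring with different import sequences. Atp5g3 was at 145.4, 167.6 and 186.0 CPM in the CSAA mice and 242.6, 235.7 and 200.3 CPM in the CDAA mice (log2 0.44 ± 0.13, edgeR adjusted p = 0.0565). Atp5g1 had a log2 fold change of 0.31 ± 0.10, and Atp5g2, whose groups overlapped, one of 0.10 ± 0.09 (edgeR adjusted p = 0.0756 and 0.517). The share of Atp5g3 in the reads of the trio was 53.7, 58.6 and 57.1% in CSAA and 61.8, 60.8 and 57.3% in CDAA, which overlapped. That of Atp5g2 was 16.7, 15.1 and 15.2% in CSAA and 12.8, 12.8 and 13.7% in CDAA, which did not.

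For some members, reads could be shared with other genes. Atp5o, the stalk subunit known for oligomycin sensitivity, had 4 to 11 reads per library in its first row and 0 in its second. The rows overlap each other, and 30.3 and 77.0% of their transcript windows occurred in transcripts of other gene identifiers. For the first row, 144 of the 224 shared windows occurred in the second Atp5o row. Atp5l shared 69.0% of windows, the highest among tested nuclear members, and was at 7.09 to 10.9 CPM in CSAA and 6.88 to 11.9 CPM in CDAA. For Ndufb9, 62.9% of the span lies under the same-strand gene Gm49356, for Ndufb2, 37.2% under Gm42420, and Cox4i1 and Ndufa13, at means of 100.2 and 46.9 CPM in CSAA, lie wholly (100%) under the same-strand genes Galnt2l and Yjefn3. In all, 35 of 100 nuclear rows shared at least 1 window, and 6 of the 26 members that rose shared over 10%. The part of shared sequence in these levels was not tested.

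Among the 12 assembly factors of the set 2 rose, 0 fell and 10 did not pass (median log2 0.30). Uqcc1, which helps make cytochrome b for complex III, was at 25.1, 28.0 and 33.0 CPM in the CSAA mice and 38.9, 44.4 and 40.4 CPM in the CDAA mice (log2 0.52 ± 0.13, edgeR adjusted p = 0.0302). Ndufaf1, which acts early in building the complex I membrane arm, rose by 0.39 ± 0.11 (edgeR adjusted p = 0.0451). Uqcc1 lost its call when CSAA replicate 1, CSAA replicate 2, CDAA replicate 1 or CDAA replicate 2 was left out (highest edgeR adjusted p = 0.106), and Ndufaf1 passed in 0 of the 6 such fits. Uqcc2, the partner of Uqcc1, did not pass, with a log2 value of -0.33 ± 0.21 (edgeR adjusted p = 0.342). Cox7a2l, counted here as an assembly factor of supercomplexes, averaged 80.3 ± 4.88 CPM in CSAA mice and 88.0 ± 4.76 CPM in CDAA (log2 0.13 ± 0.09, edgeR adjusted p = 0.391). Its log2 fold change was under 0 on library size alone.

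Other genes that serve the chain were read in 6 lists, beside 4.25% of all genes tested passing as higher. Of 37 tested assembly factors outside the set 1 rose, Higd1a, a hypoxia-responsive partner of complexes III and IV (log2 0.65 ± 0.16, edgeR adjusted p = 0.0365), and the median was 0.31. Of 21 genes of mobile carriers and ubiquinone synthesis 2 rose (median 0.29). They were Cycs, cytochrome c (log2 0.36 ± 0.10), and Etfdh, which feeds electrons of fatty acid oxidation into ubiquinone (log2 0.50 ± 0.12, edgeR adjusted p = 0.0442 and 0.0271). Of 19 tested genes of mitochondrial DNA expression 2 rose (median 0.12). Tfb2m, a mitochondrial transcription factor, was at 19.1, 25.0 and 24.0 CPM in the CSAA mice and 38.4, 31.5 and 38.7 CPM in the CDAA mice (log2 0.68 ± 0.14, edgeR adjusted p = 0.0187). Lrpprc, which stabilises mitochondrial mRNA, rose from 133.6 ± 13.1 to 196.1 ± 6.67 CPM (mean ± SD, n = 3 each, log2 0.55 ± 0.11, edgeR adjusted p = 0.0146). Of 77 tested genes of the mitochondrial ribosome 6 rose (median 0.21), including Mrpl50 and Mrps31, and of 24 general mitochondrial genes 3 rose (median 0.26), including the chaperonin genes Hspd1 and Hspe1. Of 6 tested genes of the carrier and uncoupler list 1 rose, the carnitine carrier gene Slc25a20 (median 0.00). By edgeR 0 fell in these 6 lists. At an unadjusted p under 0.05, 1 gene each of the outside assembly factors and of the carrier and uncoupler list was lower, and DESeq2 called 1 lower, in the latter. Higher at an unadjusted edgeR p under 0.05 were 15, 10, 3, 21, 13 and 2 genes, in the order of the lists above. DESeq2 called 3, 7, 2, 10, 11 and 2 higher in the same order. The 4.25% above is for the adjusted edgeR p and does not serve these counts. No share of all genes was computed at the unadjusted threshold, and that by DESeq2 is given in the last section.

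Of 13 regulators of mitochondrial biogenesis 0 passed in either direction (edgeR, 0 higher and 3 lower at an unadjusted p under 0.05, and 0 by DESeq2). These 3 were Nrf1, Ppargc1b and Pprc1, named after their values were seen, and no share of all genes was computed at that unadjusted threshold. Nrf1, a nuclear factor that binds many respiratory chain promoters, was at 15.4, 16.4 and 18.0 CPM in the CSAA mice and 11.6, 13.2 and 13.8 CPM in the CDAA mice (log2 -0.36 ± 0.14, edgeR adjusted p = 0.113). The groups did not overlap. The coactivator gene Ppargc1b had a log2 fold change of -0.58 ± 0.21 and Pprc1 one of -0.40 ± 0.17 (edgeR adjusted p = 0.104 and 0.151), while that of Ppargc1a was 0.38 ± 0.18 (edgeR adjusted p = 0.2).

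Promoters of the nuclear members held binding motifs of known respiratory chain regulators more often than promoters in general, by description. Windows from 250 bases before to 50 bases after the start (RefSeq, GRCm38.p6) were matched for 81 of 100 nuclear rows, which are 80 genes. Motifs were searched on both strands as exact letters. The NRF1 motif (GCGCA, any 1 base, then GCGC) was present in 20 of 80 genes (25.0%) and in 5.19% of the 27025 genes of the table. The ETS motif CCGGAAG, bound by the factor GABP, was present in 19 of 80 (23.8%, against 9.93%), and the YY1 motif (AAGATGG, then CGG) in 6 of 80 (7.50%, against 0.995%). All genes of the promoter table were used for comparison, without matching for expression or base content. Among the 20 members with a promoter that rose, 3 held the NRF1 motif (15%), 8 the ETS motif (40%) and 1 the YY1 motif (5%). The 3 windows below are shown because these genes rose and carry 1, 3 and 2 matches, in capitals. They are Uqcr11 (chr10:80406772-80407071, minus strand), with 1 ETS match, Sdha (chr13:74350191-74350490, minus strand), with 3 NRF1 matches, and Ndufs3 (chr2:90904672-90904971, minus strand), with 2 ETS matches on opposite strands.
Uqcr11: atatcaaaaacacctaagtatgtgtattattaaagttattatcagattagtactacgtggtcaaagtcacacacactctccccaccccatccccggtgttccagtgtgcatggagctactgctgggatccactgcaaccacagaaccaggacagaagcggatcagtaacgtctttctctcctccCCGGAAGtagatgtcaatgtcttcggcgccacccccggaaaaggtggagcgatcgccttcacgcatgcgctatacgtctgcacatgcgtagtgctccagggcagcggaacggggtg
Sdha: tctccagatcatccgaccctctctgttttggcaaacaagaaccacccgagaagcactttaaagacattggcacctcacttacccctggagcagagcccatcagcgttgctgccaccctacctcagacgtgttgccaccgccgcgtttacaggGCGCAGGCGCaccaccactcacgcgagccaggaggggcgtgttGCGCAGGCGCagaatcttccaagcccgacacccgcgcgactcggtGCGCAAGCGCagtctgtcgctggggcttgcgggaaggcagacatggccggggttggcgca
Ndufs3: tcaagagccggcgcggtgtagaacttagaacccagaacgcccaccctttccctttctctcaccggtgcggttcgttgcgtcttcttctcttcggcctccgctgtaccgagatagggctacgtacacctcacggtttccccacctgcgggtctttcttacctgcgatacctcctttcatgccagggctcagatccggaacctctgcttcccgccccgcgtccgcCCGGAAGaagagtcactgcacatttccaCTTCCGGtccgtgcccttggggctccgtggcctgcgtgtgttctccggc

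**Figure D5:**
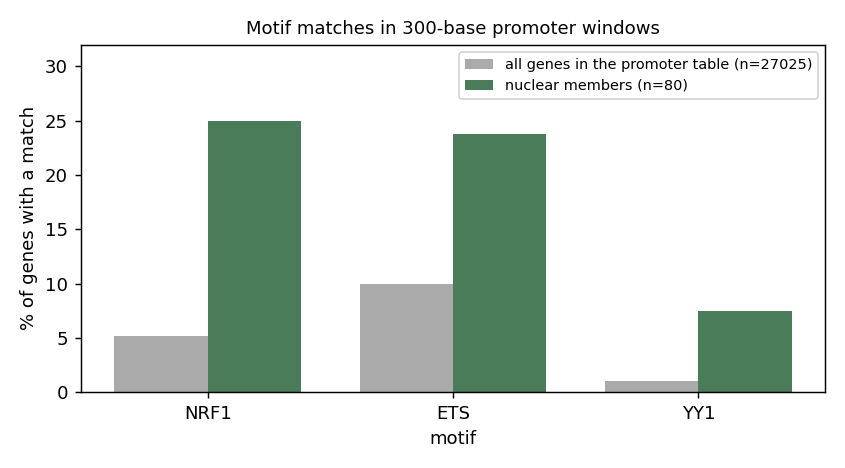
Percent of genes with at least 1 exact match of each motif in a 300-base promoter window, for the 27025 genes of the promoter table (grey) and the 80 nuclear members with a window (green). The NRF1 motif is in 25.0% of the members and 5.19% of all genes.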

How the data were processed

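Liver RNA was sequenced from 6 mice, 3 per diet, and the labels gave each library its diet and number. Each deposited file holds 1 library with whole-number read counts per gene, not normalised, and FPKM, both as the file headers name them. The deposited FPKM equalled count over gene length and library total within a relative tolerance of 0.001 for all nonzero values, and was used for levels per length. HTSeq 0.9.1, HISAT2 2.0.5, DESeq 1.30.0 and cutadapt 1.15 are listed, without order or role, in the submitters' processing notes, as are builds mm10 and mm9. Gene coordinates in the files differ from GRCm38 for some members. Read length, strand setting and multi-mapping rules: not given in the sources used here.

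The test on counts was that of edgeR 4.0.16, run in R 4.3.3 (filterByExpr, TMM factors, glmQLFit and glmQLFTest), CDAA against CSAA, with Benjamini-Hochberg adjustment over the 12845 genes kept. In replicates 1 to 3 the TMM factors were 1.17, 1.10 and 1.04 in CSAA and 0.902, 0.883 and 0.935 in CDAA. They thus separated the diets, and CPM and fold changes on the TMM scale carry this shift. Of 113 members 10 were removed by the filter on low counts, 4 of them with 0 reads in all libraries. The SE of a log2 fold change is its size over the square root of F. DESeq2 1.42.0 was an alternative. Counting limits use 3 counts, with no molecular identifiers named. On simulated counts the fit recovered 6 of 67 genes changed 1.5-fold, 35 of 67 changed 2-fold and 66 of 66 changed 4-fold. It made 4 false calls. Members and lists (13 lists, 2 entries without a match) were chosen with earlier results of these data known. Genes named were all mitochondrially encoded members, up to 6 passing members per complex and of the assembly factors by smallest adjusted p, the most abundant subunit of each complex per length, the Sdh genes, fixed isoform sets, and up to 2 passing members per other list. Others were chosen after their values were seen. Windows of 100 bases of the longest protein-coding transcript (any transcript where there is none) of each member were looked up in all GENCODE M21 transcripts, both strands. The labels do not say how the mice were housed or paired. The p-values set the difference between diets against the variation between libraries of the same diet. Anything shared by the mice of a diet, such as housing, cannot be told apart from the diet.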

Additional observations from a re-analysis of the deposited data

How the results depend on the processing

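The 26 members called higher, beside 4.25% of all genes, became 2 with library size only (Uqcr11 and mt-Nd6), 17 with no filter, 56 with DESeq2 and 8 with the replicate block, beside 1.07, 2.69, 6.57 and 2.28% of all genes called higher in the same fits. The count was between 3 and 31 in the fits that leave out a library, beside 0.588 to 5.25% of all genes. With RLE or upper-quartile factors, or with mitochondrially encoded genes left out of totals, it was 34, 18 and 26, beside 5.4, 3.17 and 4.25%. Members called lower numbered 0 in each of these fits. By the labels, libraries share only a number across diets, and same-numbered ones had correlations of deviations of 0.0493, 0.137 and -0.0897. These values cannot show whether mice were paired, and the labels do not say, so the block is not read as a pairing. The median of nuclear subunits moved to 0.0738 with library size only, where all genes had a median of -0.28, and its distance to the median of all genes was between 0.31 and 0.44 over the 13 alternatives. The difference in the mitochondrial share of reads, 1.34 percentage points, was 2.27 by FPKM and 1.06 to 1.62 with a library left out. Among named genes, log2 fold changes turned sign with library size only for Cox7a2l (-0.15), Ndufa8 (-0.0138), Cox8a (-0.000601), Cox6a1 (-0.10), Sdhc (-0.00955), Atp5g2 (-0.18) and mt-Co3 (-0.0434). That of Ndufa4l2 (-0.01) turned with RLE factors (0.0172), DESeq2 (0.0209) and the replicate block (0.00276). With a library left out it ranged from -0.20 to 0.28, mt-Co3 from -0.0289 to 0.69 and Cox7a1 from -0.39 to 0.33. The cause was not tested. Members that did not pass may still differ at 3 against 3 libraries.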
